A study of Mus musculus with 8 samples.

Results

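Transcripts of 9 complement genes were followed in EpCAM-positive cells sorted from mouse pancreatic tumours: the C1q chain genes C1qa, C1qb and C1qc, the protease and convertase genes C2, C4b, C3 and Cfb, the properdin gene Cfp and the receptor gene C3ar1. They were taken by symbol as a list of complement components, and all 9 were found among the 24537 genes of the count table. All mice were FVB/NJ animals with the Pdx1-Cre transgene and the alleles Tp53f/f and Rosa26LSL-Luc, besides a further Cre-dependent allele that all of them carried. Cre made from the Pdx1 promoter of pancreatic epithelium switches on luciferase and deletes p53 there, while the other cells of the tumour keep the unrecombined alleles. In the anti-LIF arm, 4 mice received gemcitabine with an antibody against the cytokine LIF (leukaemia inhibitory factor), and in the control arm 4 mice received gemcitabine with control IgG. Every mouse thus carried the same alleles and was given gemcitabine (days 1 and 4, 50 mg/kg each) and an antibody (days 1, 3 and 5, 25 mg/kg each), and there was no arm without gemcitabine. Dosing began at 42 to 43 days of age, and each tumour was collected on day 6, at about 48 days, and sequenced as 1 library.

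Complement is a cascade of plasma and tissue proteins that tags targets and draws in phagocytes. C1q starts the classical pathway by binding antibody complexes or dying cells, after which C4 and C2 are cleaved to form an enzyme that cleaves C3. Factor B (Cfb), stabilised by properdin (Cfp), forms the corresponding enzyme of the alternative pathway, and the released C3a fragment signals through the receptor encoded by C3ar1. The liver makes most circulating complement, whereas tissue macrophages are known as the main source of C1q and epithelial cells can make C3 and factor B.

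Each of the 8 libraries held 15135457 to 18972281 counts in genes. Although the cells were sorted on EpCAM, 20 macrophage markers were all detected in these libraries and together took 2.57% to 3.65% of gene counts in the anti-LIF arm, against 1.32% to 1.79% in the IgG arm. Ptprc, the pan-leukocyte CD45 gene, stood at 511 ± 47.9 CPM with anti-LIF and 281 ± 45.2 CPM with IgG (counts per 1000000 counts, mean ± SD, n = 4 each here and below). The 14 epithelial markers took 0.190% to 0.373% of counts with anti-LIF, against 0.605% to 0.741% with IgG, and Epcam itself averaged 305 ± 74.8 CPM with anti-LIF and 575 ± 76.8 CPM with IgG. The 14 acinar markers took 0.253% to 1.36% with anti-LIF and 0.0319% to 0.181% with IgG, and 11 of them rose. The 10 fibroblast markers took 0.0249% to 0.0962% with anti-LIF and 0.0239% to 0.0898% with IgG. Neutrophil, dendritic-cell, lymphoid and endothelial lists held at most 0.0166%, 0.00849%, 0.00394% and 0.00346% of counts in any library. The hepatocyte list reached 0.0267%, and 1 of its 6 tested genes, Ttr, passed the test. Its highest gene, Apoa1, averaged 77.9 ± 112 CPM with anti-LIF and 32.8 ± 45.3 CPM with IgG, Ttr fell to 8.27 ± 3.50 CPM with anti-LIF, against 20.5 ± 8.03 CPM with IgG, and Alb averaged 2.93 ± 0.64 CPM with anti-LIF and 1.69 ± 0.76 CPM with IgG. Anti-LIF library KPCL-PCC_227_GA stood apart, with the highest macrophage share (3.65%) and the lowest epithelial share (0.190%), so results that rest on it are also given without it. In bulk RNA, more cells of a type and more RNA per cell cannot be told apart. The labels and headers name no batch.

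With anti-LIF, 7 of the 9 complement genes rose by edgeR's quasi-likelihood test at an adjusted p under 0.05, and 0 fell, all 9 log2 fold changes being positive. Over all 14711 tested genes, 15.7% rose and 16.5% fell. In the same 7 genes every anti-LIF library lay above every IgG library in CPM, which was the case for 17.6% of tested genes. The median log2 fold change (anti-LIF over IgG) was 1.32 over the 9 genes and -0.01 over all tested genes. C2 and C4b did not pass. All 9 genes passed the filter on low counts. The 20 macrophage markers had a median log2 fold change of 0.95, with 14 risen and 0 fallen, so the complement genes rose in libraries in which macrophage markers rose too. The 14 epithelial markers had a median of -0.95, with 12 fallen.

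**Figure D1:**
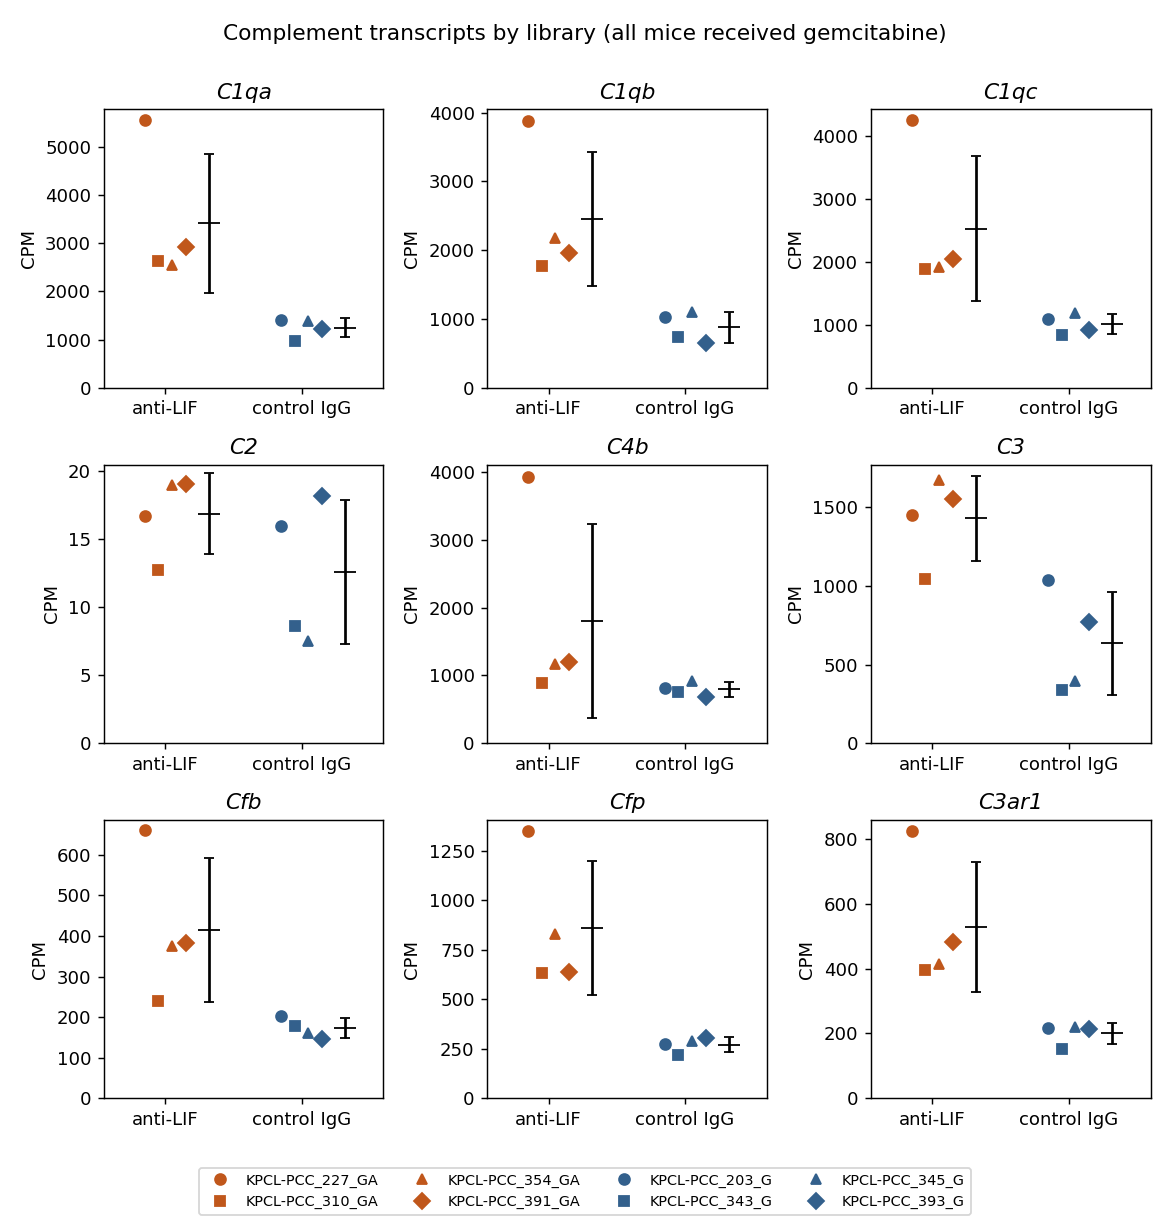
CPM of each of the 9 complement genes in every library, with anti-LIF libraries in orange on the left and control IgG libraries in blue on the right of each panel; bars are mean ± SD (n = 4) and marker shapes only tell libraries of an arm apart. The arms are separate in 7 panels and overlap for C2 and C4b, and library KPCL-PCC_227_GA is the highest point in 7 panels.

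Values by library are CPM, given for the anti-LIF arm as KPCL-PCC_227_GA first, then KPCL-PCC_310_GA, then KPCL-PCC_354_GA and last KPCL-PCC_391_GA, and for the IgG arm as KPCL-PCC_203_G first, then KPCL-PCC_343_G, then KPCL-PCC_345_G and last KPCL-PCC_393_G. The C1q molecule is built from A, B and C chains, whose genes lie side by side on the minus strand of chromosome 4 (mm10), within 18699 bases. C1qa (136895916 to 136898844) had 5549, 2629, 2540 and 2921 CPM with anti-LIF, against 1399, 981, 1392 and 1227 CPM with IgG. All 4 anti-LIF libraries were above the IgG range, and KPCL-PCC_227_GA was 1.90 times the next. C1qa rose 2.73-fold (log2 fold change 1.45 ± 0.28 SE, adjusted p = 0.00702), or by 1.11 on the log2 scale without that library (adjusted p = 0.00350).

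C1qb (136880145 to 136886177), the B chain, had 3885, 1771, 2183 and 1956 CPM with anti-LIF, against 1028, 734, 1108 and 647.5 CPM with IgG. It rose 2.79-fold (1.48 ± 0.29, adjusted p = 0.00773), or by 1.17 without KPCL-PCC_227_GA. C1qc (136889802 to 136892914), the C chain, had 4254, 1894, 1913 and 2052 CPM with anti-LIF, against 1093, 840.2, 1186 and 925.9 CPM with IgG. It rose by 1.32 ± 0.28 on the log2 scale (adjusted p = 0.0105), or by 0.95 without KPCL-PCC_227_GA. The 3 chain genes thus moved by similar amounts, and together took 0.620% to 1.16% of all gene counts with anti-LIF, against 0.268% to 0.384% with IgG.

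The balance between the chains was compared as ratios of counts within a library, which do not depend on scaling. C1qc per C1qa was 0.767, 0.721, 0.753 and 0.703 with anti-LIF, against 0.781, 0.857, 0.853 and 0.755 with IgG. The mean log2 ratio differed by -0.14 (exact two-sided permutation p = 0.0571, adjusted over 4 ratios 0.229; the smallest p possible with 4 against 4 is 0.0286). It was -0.44 ± 0.06 with anti-LIF and -0.30 ± 0.09 with IgG (SD, n = 4 each). C1qb per C1qa averaged -0.47 ± 0.17 on the log2 scale with anti-LIF and -0.53 ± 0.27 with IgG (exact permutation p = 0.771). C1qc per C1qb averaged 0.03 ± 0.15 with anti-LIF and 0.22 ± 0.20 with IgG (exact permutation p = 0.171). No ratio of chains therefore passed the threshold of 0.05. With so few libraries 1 ratio alone could not pass it after adjustment, so no likeness of the ratios is concluded.

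RefSeq promoter windows (build GRCm38.p6) were at hand for 5 of the 9 genes. Those of C1qb and C1qc, neighbours that moved together, and of C3ar1 and C3, whose patterns across libraries were the nearest to and among the farthest from that of C1qa, are shown as the 250 bases before the start site, 5′ to 3′ on the minus strand. Capitals mark motif matches. They lie at chr4:136886201-136886450, chr4:136892915-136893164, chr6:122856158-122856407 and chr17:57228137-57228386; the start site of the C1qb window is not the end of the transcript in the count table.
C1qb: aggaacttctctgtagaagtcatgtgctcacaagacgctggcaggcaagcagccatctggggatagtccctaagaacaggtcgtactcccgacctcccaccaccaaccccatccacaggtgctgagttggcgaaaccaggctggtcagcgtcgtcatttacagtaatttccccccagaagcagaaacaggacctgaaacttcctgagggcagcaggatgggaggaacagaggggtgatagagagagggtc
C1qc: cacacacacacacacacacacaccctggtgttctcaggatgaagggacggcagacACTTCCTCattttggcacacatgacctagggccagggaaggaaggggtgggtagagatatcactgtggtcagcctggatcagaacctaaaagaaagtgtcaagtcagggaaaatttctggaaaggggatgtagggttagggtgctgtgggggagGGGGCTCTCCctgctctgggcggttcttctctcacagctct
C3ar1: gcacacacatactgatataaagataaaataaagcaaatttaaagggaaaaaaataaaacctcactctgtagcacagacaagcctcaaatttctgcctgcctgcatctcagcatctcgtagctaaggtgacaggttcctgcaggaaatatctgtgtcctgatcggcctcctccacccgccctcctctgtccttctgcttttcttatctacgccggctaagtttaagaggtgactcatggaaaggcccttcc
C3: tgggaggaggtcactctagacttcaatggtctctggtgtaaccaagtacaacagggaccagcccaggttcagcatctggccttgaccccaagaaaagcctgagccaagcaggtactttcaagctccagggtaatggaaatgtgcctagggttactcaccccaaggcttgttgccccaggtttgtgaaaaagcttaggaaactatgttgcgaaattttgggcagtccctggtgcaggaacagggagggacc

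Both strands of the 300-base windows, which run 50 bases past the start site, were searched for the STAT site TTCNNNGAA, the interferon site TTTCNNTTTC, the NF-kB site by its standard consensus, and the site GAGGAAGT of PU.1, a transcription factor of myeloid cells. The C1qc window held 1 PU.1 match on the opposite strand, 195 to 188 bases before the start site, and 1 NF-kB match, 41 to 32 bases before it. The windows of C1qb, C3, Cfp and C3ar1 held 0 matches to any of the 4 motifs. Among all 32851 windows, 8.3% held the STAT motif, 3.44% the interferon motif, 4.51% the NF-kB motif and 3.2% the PU.1 motif. A match describes letters only, and binding was not measured.

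C4b and C2 encode the next classical components, the substrates that C1 cleaves. Both lie on the minus strand of chromosome 17 in the MHC class III region, with Cfb between them, within 153719 bases. C4b (34728381 to 34743897) had 3933, 893.3, 1166 and 1199 CPM with anti-LIF, against 812.2, 759, 921.5 and 673.6 CPM with IgG. Library KPCL-PCC_227_GA held 3.28 times the next highest, and KPCL-PCC_310_GA lay within the IgG range. The log2 fold change was 1.18 ± 0.44 (adjusted p = 0.0695), and without KPCL-PCC_227_GA it was 0.46 with a smaller spread (adjusted p = 0.0475), so the size of the difference depended on that library. C4b also passed without KPCL-PCC_310_GA (1.42, adjusted p = 0.0391), but not in the other 6 fits that left out 1 library (adjusted p up to 0.145). With all 8 libraries DESeq2 called C4b (adjusted p = 0.0155) and limma-voom did not (adjusted p = 0.104).

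C4b has a close copy, C4a, whose protein is known in the mouse as sex-limited protein, and reads can be shared between the copies. C4a counts were 3.13%, 3.15%, 3.39% and 3.10% of C4b counts with anti-LIF, against 3.11%, 3.03%, 1.73% and 3.33% with IgG. C4a had 123, 28.1, 39.6 and 37.2 CPM with anti-LIF, against 25.29, 23.01, 15.95 and 22.43 CPM with IgG. Its log2 fold change was 1.40 ± 0.44 (adjusted p = 0.0408), or 0.69 without KPCL-PCC_227_GA. The division of reads between C4a and C4b is uncertain.

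C2 (34862602 to 34882100) was the least abundant of the 9 genes. It had 16.73, 12.75, 19.03 and 19.07 CPM with anti-LIF, against 16, 8.621, 7.496 and 18.16 CPM with IgG. The arms overlapped, and 2 IgG libraries, KPCL-PCC_203_G and KPCL-PCC_393_G, lay within the anti-LIF range. The log2 fold change of 0.43 ± 0.29 did not pass (adjusted p = 0.289).

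C3, on which all complement pathways converge (chromosome 17, 57203967 to 57228136), had 1453, 1046, 1673 and 1550 CPM with anti-LIF, against 1036, 340, 395.3 and 770.6 CPM with IgG. In CPM the arms were separated by a narrow gap, since the lowest anti-LIF library (1046 CPM) and the highest IgG library (1036 CPM) nearly met. The IgG libraries spread 3.05-fold between lowest and highest. C3 rose 2.25-fold (1.17 ± 0.35, adjusted p = 0.0334). The call was lost in 6 of the 8 fits that left out 1 library, all except those without KPCL-PCC_310_GA and KPCL-PCC_203_G, with log2 fold changes of 0.96 to 1.51 and adjusted p of 0.0152 to 0.0763 over the 8 fits. The highest library for C3 was KPCL-PCC_354_GA, not KPCL-PCC_227_GA.

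Cfb, factor B of the alternative pathway (chromosome 17, 34856374 to 34862514), had 660.2, 239.4, 374.1 and 382.6 CPM with anti-LIF, against 203, 179, 162.1 and 145.4 CPM with IgG. The arms did not overlap, and the anti-LIF libraries spread 2.76-fold, against 1.40-fold for IgG. Cfb rose 2.402-fold (1.26 ± 0.27, adjusted p = 0.0106), or by 0.95 without KPCL-PCC_227_GA. Cfb starts 88 bases past the end of C2 on the same strand, and C2 did not pass where Cfb did. Counts of Cfb per count of C2 were 39.5, 18.8, 19.7 and 20.1 with anti-LIF, against 12.7, 20.8, 21.6 and 8.01 with IgG. The difference in mean log2 ratio was 0.67, with 4.54 ± 0.51 for anti-LIF and 3.87 ± 0.68 for IgG (exact two-sided permutation p = 0.286).

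Cfp, the properdin gene (chromosome X, 20925454 to 20931555), had the largest fold change of the 9 genes. It had 1350, 631.3, 831.2 and 636.8 CPM with anti-LIF, against 274, 217.7, 289.9 and 302.8 CPM with IgG. The lowest anti-LIF library (631.3 CPM) was far above the highest IgG library (302.8 CPM). Cfp rose 3.18-fold (1.67 ± 0.25, adjusted p = 0.00433), or by 1.37 without KPCL-PCC_227_GA.

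C3ar1, the receptor for the C3a fragment (chromosome 6, 122847140 to 122856157), had 824.5, 395.6, 414.6 and 481.9 CPM with anti-LIF, against 216.8, 152.6, 218.9 and 215.1 CPM with IgG. Its arms were well separated, with the lowest anti-LIF library at 395.6 CPM and the highest IgG library at 218.9 CPM. It rose 2.64-fold (1.40 ± 0.25, adjusted p = 0.00568), or by 1.10 without KPCL-PCC_227_GA. C1qa, C1qb, C1qc, Cfb, Cfp and C3ar1 passed in each of the 8 fits that left out 1 library.

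Levels were compared between genes as FPKM, which corrects for transcript length. The order was C1qa, C1qc, C1qb, Cfp, C4b, C3, Cfb, C3ar1 and C2 in both arms. C1qa stood at 2361 ± 797 FPKM with anti-LIF and 967 ± 165 FPKM with IgG, and ranked 10 with anti-LIF and 22 with IgG by mean FPKM among 24537 genes. Its range overlapped that of C1qc in both arms. C1qc stood at 1794 ± 666 FPKM with anti-LIF and 802 ± 124 FPKM with IgG, and C1qb at 1730 ± 547 FPKM with anti-LIF and 691 ± 173 FPKM with IgG with ranges that overlapped those of C1qc in both arms. Cfp followed at 397 ± 125 FPKM with anti-LIF and 139 ± 21.2 FPKM with IgG. C4b stood at 246 ± 174 FPKM with anti-LIF and 123 ± 14.3 FPKM with IgG. C3 stood at 213 ± 42.8 FPKM with anti-LIF and 105 ± 57.9 FPKM with IgG. Its arms overlapped in FPKM, though not in CPM, with 162 FPKM in the lowest anti-LIF library and 176 FPKM in the highest IgG library. C4b and C3 overlapped in both arms, C4b overlapped Cfp in both arms, and C3 overlapped Cfp in the IgG arm. C3 and Cfb overlapped in both arms as well. Cfb stood at 113 ± 40.1 FPKM with anti-LIF and 52.7 ± 8.60 FPKM with IgG, and C3ar1 at 92.1 ± 27.4 FPKM with anti-LIF and 39.0 ± 6.86 FPKM with IgG, with overlapping ranges under anti-LIF only. C2 was far below, at 4.90 ± 0.94 FPKM with anti-LIF and 4.03 ± 1.82 FPKM with IgG.

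Counts of each gene were then set against the summed counts of the 20 macrophage markers in the same library, none of which is a complement gene of the 9. Abundant markers weigh most in that sum. Lyz2 was the most abundant of the 20, at 13510 ± 5782 CPM with anti-LIF and 4177 ± 718 CPM with IgG. Its log2 fold change was 1.69, against a median of 0.95 over the 20 markers. Relative to the summed markers, the arms overlapped for all 9 genes. C1qa had 82.6 to 128 counts per 1000 macrophage-marker counts with anti-LIF (median 97.9), against 71.0 to 98.1 with IgG (median 88.4). Cfb had 9.17 to 15.3 (median 12.3) with anti-LIF and 9.44 to 13.9 (median 12.3) with IgG. C3ar1 had 13.5 to 19.1 (median 15.4) with anti-LIF and 11.04 to 17.2 (median 13.8) with IgG. Cfp gave the highest ratio of medians, 1.44, with 20.7 to 31.2 counts with anti-LIF and 15.8 to 24.2 with IgG.

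C4b had a different distribution on that scale. It had 34.2, 37.9 and 39.1 counts per 1000 macrophage-marker counts in anti-LIF libraries KPCL-PCC_310_GA, KPCL-PCC_354_GA and KPCL-PCC_391_GA and 90.9 in KPCL-PCC_227_GA, against 53.6 to 55.7 in the 4 IgG libraries. The IgG libraries were thus almost alike, with 3 anti-LIF libraries below them and 1 above. C3 had 33.6 to 54.4 counts with anti-LIF, within the range of 23.0 to 71.0 with IgG, where KPCL-PCC_203_G and KPCL-PCC_393_G were high and the other two low. C2 had 0.387 to 0.621 counts with anti-LIF and 0.436 to 1.45 with IgG. In edgeR with libraries scaled to the macrophage markers, which moved the median of all genes to -1.15, 1 of the 9 genes passed, Cfp (log2 fold change 0.45). Of all tested genes, 1.16% rose on that scale. C1qa, C1qb and C1qc stood at 0.23, 0.29 and 0.11 there, while C3, C4b and C2 turned to -0.01, -0.11 and -0.77. With libraries scaled to the epithelial markers, which moved the median of all genes to 1.07, all 9 genes passed upward, from 1.53 for C2 to 2.85 for Cfp. On this epithelial scale 77.6% of all tested genes rose as well. The part of macrophage number or of expression per macrophage in these values was not tested.

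**Figure D2:**
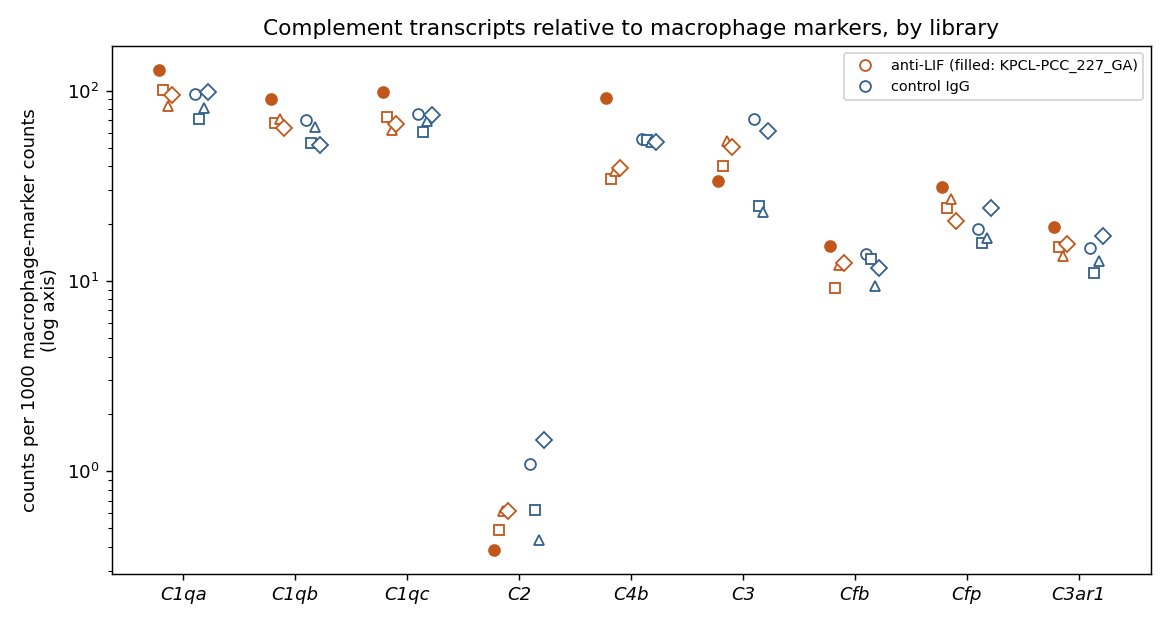
Counts of each complement gene per 1000 counts of the 20 summed macrophage markers, on a log axis, with anti-LIF libraries in orange on the left of each pair and control IgG libraries in blue on the right; each point is 1 library. The arms overlap for every gene, and for C4b the 4 IgG libraries lie between 53.6 and 55.7 while library KPCL-PCC_227_GA (filled) lies at 90.9.

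**Figure D3:**
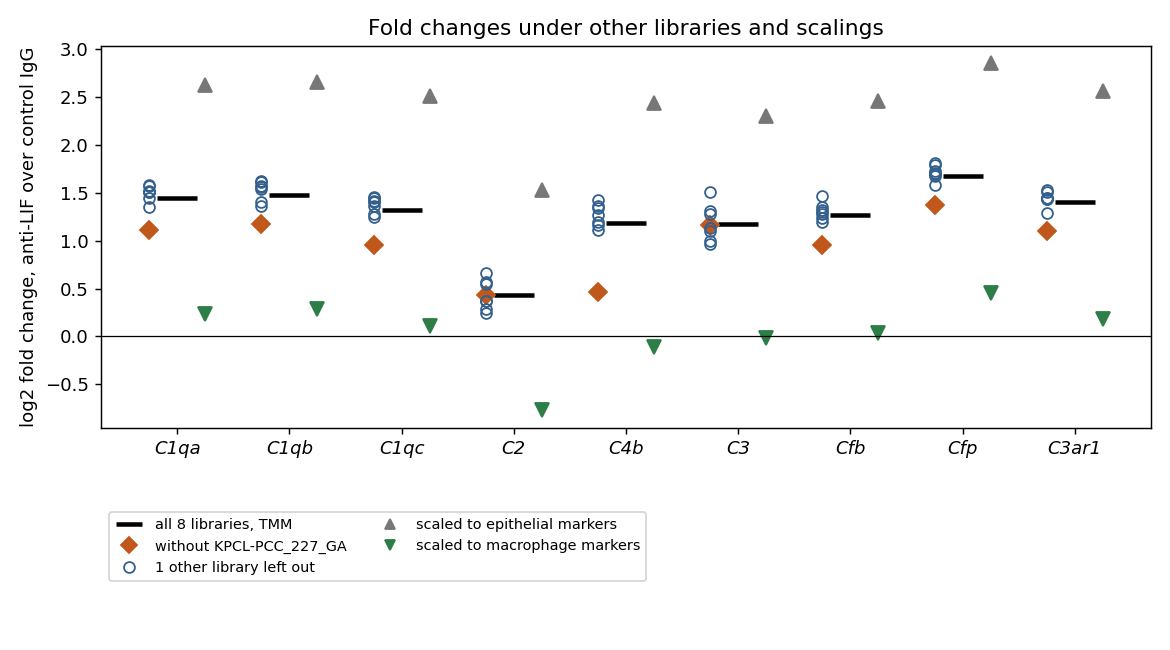
Log2 fold change, anti-LIF over control IgG, of each complement gene with all 8 libraries and TMM scaling (black bars), with 1 library left out (circles, or orange diamonds for KPCL-PCC_227_GA) and with libraries scaled to marker lists (triangles). Leaving out KPCL-PCC_227_GA lowers C4b to 0.46, and scaling to macrophage markers puts the genes between -0.77 for C2 and 0.45 for Cfp.

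Likeness across the 8 libraries was measured as the root mean square difference between log2 CPM values, each taken as a deviation from the gene's own mean. Among pairs of the 9 genes, the closest was C1qa with C3ar1 (0.07 log2 units), followed by C1qa with C1qc (0.10). C1qa lay 0.20 from C1qb, 0.21 from Cfp, 0.28 from Cfb, 0.38 from C4b, 0.54 from C3 and 0.68 from C2. C2 was nearest to C3, at 0.45, and C3 had no closer member of the 9 than C2. Among 10181 tested genes of at least 10 CPM on average, the 5 nearest to C1qa were C3ar1, C1qc, Cd300lb (0.12), Pde2a (0.12) and Lrrc25 (0.13). The 5 nearest to Cfb were Kctd12 (0.14), Gdpd3 (0.16), Ermard (0.16), Marcks (0.17) and Msrb2 (0.17). The 5 nearest to C3 were Aspm (0.24), Cenpf (0.24), Ncbp2 (0.28), Dhrs9 (0.29) and 6530402F18Rik (0.31), all at larger distances than those of C1qa. These distances hold the difference between arms as well as the spread within them.

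Genes within 100 kb of the 9 genes were called in both directions, as were 15.7% of all tested genes upward and 16.5% downward, and with so few genes at each place nothing is read from these counts. Beside the C1q genes, Ephb2 fell (-0.89, adjusted p = 0.00741) and Zbtb40 rose (0.69, adjusted p = 0.00688), and Epha8 was not tested. Around C2 and Cfb, 15 of 19 other genes were tested, of which 3 rose (Nelfe, Neu1 and C4a) and 2 fell (1110038B12Rik and Slc44a4). Around C4b, 8 of 10 were tested and Atf6b and C4a rose. Around C3, 6 of 8 were tested, with Gpr108 and Vav1 higher and Trip10 and Gm11110 lower at the threshold. Beside C3ar1, the C-type lectin genes Clec4a1 (1.28) and Clec4a3 (1.26) and the endocytosis gene Necap1 (0.29) rose, and of 7 tested genes near Cfp only Syn1 rose (1.54).

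The rest of the complement system was read from a list of 49 symbols, of which 45 were in the count table and 26 were tested. Of these, 10 rose and 2 fell, while 15.7% of all tested genes rose and 16.5% fell, and the median log2 fold change was 0.39. Of the receptors, 6 of 8 tested genes rose. C5ar1, the C5a receptor, had 817, 394, 382 and 396 CPM with anti-LIF, against 191, 120, 173 and 204 CPM with IgG. It rose 2.89-fold (1.53 ± 0.28, adjusted p = 0.00649), or by 1.19 on the log2 scale without KPCL-PCC_227_GA. Vsig4, a complement receptor of resident macrophages, rose 3.43-fold (1.78 ± 0.54, adjusted p = 0.0341), and Cr2, the receptor for C3d known from B cells, rose 7.21-fold at a low level, 6.81 ± 2.80 CPM with anti-LIF and 0.947 ± 1.00 CPM with IgG. The log2 fold change of Cr2 was 2.85 ± 0.69 (adjusted p = 0.0156), with a range from 2.48 without KPCL-PCC_343_G to 3.81 without KPCL-PCC_203_G. That of Vsig4 was 1.17 without KPCL-PCC_227_GA, where it did not pass. C5ar2, Itgam and Itgb2, which encode a further C5a receptor and the chains of complement receptor CR3, rose 1.52-fold, 1.89-fold and 1.41-fold. Itgax did not pass with all 8 libraries, with 264 ± 145 CPM with anti-LIF and 190 ± 55.9 CPM with IgG. Its lowest library was KPCL-PCC_227_GA at 69.9 CPM, the other anti-LIF libraries holding 288, 422 and 275 CPM. Without KPCL-PCC_227_GA Itgax rose at the threshold.

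**Figure D4:**
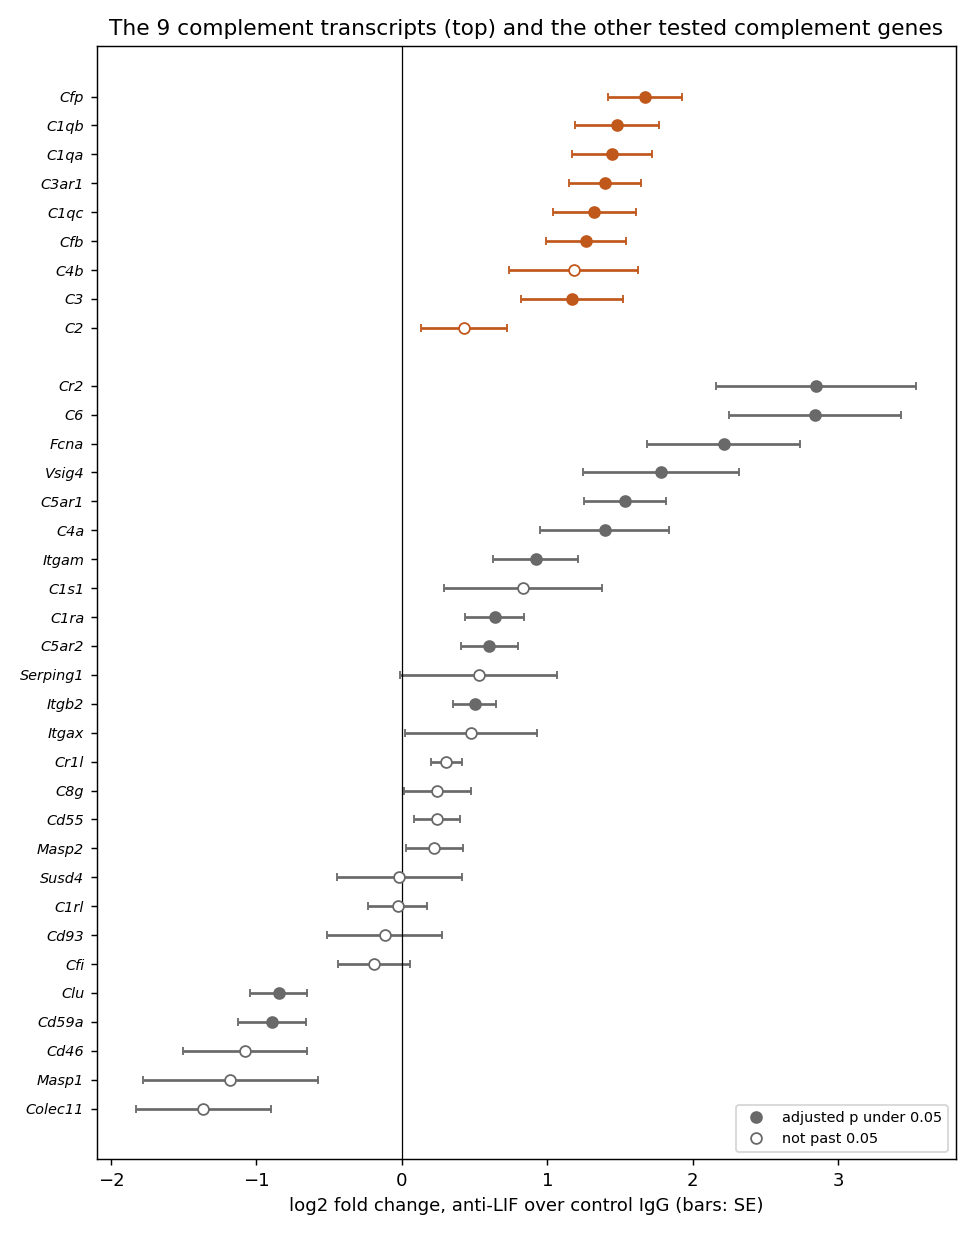
Log2 fold change, anti-LIF over control IgG, with its SE, of the 9 complement genes (orange, top) and of 26 other tested complement genes (grey), filled where the adjusted p was under 0.05. Of the 9 genes, 7 are filled and to the right of 0, and of the other genes 10 are filled to the right and Clu and Cd59a to the left.

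Among starters of the classical and lectin pathways, 2 of 7 tested genes rose, while 15.7% of all tested genes rose. Fcna, a ficolin of macrophages that recognises sugars, had 1806, 322, 633 and 529 CPM with anti-LIF, against 240, 95.4, 189 and 185 CPM with IgG, and rose 4.64-fold (2.21 ± 0.53, adjusted p = 0.0149). Without KPCL-PCC_227_GA its log2 fold change was 1.48 (adjusted p = 0.0129). C1ra, a protease of the C1 complex, rose 1.56-fold, and its partner C1s1 did not pass, with 44.97 ± 23.91 CPM with anti-LIF and 25.2 ± 15.1 CPM with IgG. The mannose-binding lectin genes Mbl1 and Mbl2 held 0 and 0 counts over the anti-LIF arm and 0 and 4 over the IgG arm, and Cfd, the protease that cleaves factor B, held 16 with anti-LIF and 18 with IgG.

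Of the terminal components, C6 rose 7.16-fold (2.84 ± 0.59, adjusted p = 0.00938), with 145, 41.7, 80.6 and 63.1 CPM with anti-LIF, against 25.3, 3.844, 10.03 and 7.026 CPM with IgG. Its log2 fold change was 2.43 without KPCL-PCC_227_GA, and 3.56 without KPCL-PCC_203_G, the highest IgG library. The other terminal genes were near absence: Hc, the C5 gene, held 4 counts over the anti-LIF arm and 8 over the IgG arm, and C7 held 20 with anti-LIF and 30 with IgG. FVB/NJ mice are known to lack circulating C5 because of a defective Hc allele. C8a, C8b and C9 held 2, 1 and 1 counts with anti-LIF and 0 with IgG, and C8g did not pass, at 1.83 ± 0.19 CPM with anti-LIF and 1.55 ± 0.36 CPM with IgG.

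Among the regulators reported here, 2 of 8 tested genes fell and 0 rose, while 16.5% of all tested genes fell and 15.7% rose. Clu, clusterin, an abundant inhibitor of the terminal complex, fell to 6330 ± 1066 CPM with anti-LIF, against 11390 ± 1198 CPM with IgG (-0.85 ± 0.19, adjusted p = 0.0127). Cd59a, a membrane-bound inhibitor of the terminal complex, fell to 9.08 ± 1.09 CPM with anti-LIF, against 16.9 ± 4.93 CPM with IgG (-0.89 ± 0.23, adjusted p = 0.0203). Serping1, the C1 inhibitor gene, did not pass, with 75.7 ± 33.7 CPM with anti-LIF and 52.5 ± 36.3 CPM with IgG. In each of the 8 fits that left out 1 library, Fcna, C6, C5ar1, Cr2 and Clu passed. The other 7 calls were lost in 4 to 6 of them. C1ra and Cd59a each lost theirs in 4, with log2 fold changes of 0.52 to 0.75 for C1ra and -1.09 to -0.80 for Cd59a. C4a (0.69 to 1.63), C5ar2 (0.36 to 0.72), Itgb2 (0.39 to 0.58) and Vsig4 (1.17 to 2.06) lost theirs in 5, and Itgam (0.71 to 1.18) in 6. Each of the 8 libraries was among those whose absence ended at least 1 of these 7 calls, and the absence of KPCL-PCC_343_G ended all 7. Scaled to the macrophage markers, Fcna, C6 and Cr2 were the 3 genes that still passed upward, and 14 of the 26 passed downward. On that scale all genes moved by a median of -1.15. Of all 14711 tested genes, 170 passed upward and 12494 downward there.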

How the data were processed

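Polyadenylated RNA was sequenced from sorted EpCAM-positive tumour cells of 8 mice, 4 in each arm. Per the submitters' processing notes, reads were checked with FastQC 0.11.2, aligned to mm10 with STAR 2.4.0k and counted with HOMER; edgeR 3.6.8 is also named there. Per the file headers, exonic reads were counted for 1 transcript per gene. The authors deposited raw counts, used for all tests, and FPKM values, scaled to transcript length and library total, used for levels. The sources used here do not give the strand setting or the annotation version. Of the per-sample columns, 0 were left unused.

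Tests on counts used edgeR 4.0.16 under R 4.3.3. Genes kept by filterByExpr (14711) were scaled by TMM and compared by the quasi-likelihood test, with Benjamini-Hochberg adjustment over all tested genes and a threshold of 0.05. Fold changes are anti-LIF over IgG, and SE is the log2 fold change divided by the square root of F. CPM are counts per 1000000 of the TMM library size, and likeness used log2 CPM with a prior count of 2. Ratios between genes were compared by exact permutation over the 70 assignments of 4 libraries. The count test was tested on simulated data. The 9 genes, the complement list, the marker lists and the tests were chosen with earlier results of these data known. Genes named outside the 9 are, first, those of the complement list past the threshold. Next come the most abundant tested gene of each part of that list that did not pass, the 5 nearest to C1qa, C3 and Cfb, and Epcam. Ptprc, Lyz2, the hepatocyte genes, the neighbours, Hc, Cfd, C7, Colec11, the Mbl and C8 genes and C9 were named after their values were seen. A gene of the complement list is not reported here and is left out of that list's counts. Alternatives were other scalings, DESeq2 1.42.0, limma 3.58.1 (voom on counts, or trend on FPKM plus 1 or plus 0.1 in log2), changed filters, and each library left out in turn. Each library is from a separate mouse, so p-values measure the spread between mice. Reads carry no molecular identifiers.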

Additional observations from a re-analysis of the deposited data

Results flagged for a closer look

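In 68 groups of 4 libraries, values of 1 library lay far from the other 3 in 10 cases. Chance gives about 1 in 20 for separate groups of normally distributed values. These groups share the same 8 libraries and are not independent, so no excess is read from the 10 cases. Of the 10 cases, 7 were anti-LIF library KPCL-PCC_227_GA, which also had the highest macrophage-marker and the lowest epithelial-marker share. It stood at 5549 CPM for C1qa (next 2921), 4254 CPM for C1qc (next 2052), 3933 CPM for C4b (next 1199), 123.1 CPM for C4a (next 39.6) and 817.3 CPM for C5ar1 (next 395.5). Its count of Cfb per count of C2 was 39.5 (next 20.1). C4b per 1000 macrophage-marker counts was 90.9 there (next 39.1), so C4b stood apart also relative to those markers.

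Among IgG libraries, KPCL-PCC_343_G was low for C3ar1 at 152.6 CPM (next 215.1), and KPCL-PCC_203_G was low for Cd59a at 9.52 CPM (next 18.9). In anti-LIF library KPCL-PCC_354_GA the ratio of C1qb to C1qa was 0.859 (next 0.7001).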

How the results depend on the processing

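Of the 9 genes, 7 rose and 0 fell under TMM, and 6 to 9 rose under the other settings except scaling to macrophage markers, where 1 rose; 6 to 8 rose (0 fell) with 1 library left out. By library size alone C3 did not pass (1.00, adjusted p = 0.0570). Scaled to macrophage markers, C2, C4b and C3 turned to -0.77, -0.11 and -0.013. C1qb per C1qa, at 0.06, turned to -0.026 without KPCL-PCC_354_GA and -0.073 without KPCL-PCC_393_G (range -0.073 to 0.125 with 1 library left out), and C1qc per C1qa reached p = 0.0286, the smallest exact permutation p possible there, without KPCL-PCC_393_G. Of the other complement genes, 10 rose and 2 fell; 6 and 4 by library size alone, 5 and 1 with limma-trend on FPKM at either pseudocount, 3 and 14 scaled to macrophage markers, 21 and 0 scaled to epithelial markers, and 4 to 9 and 1 to 3 with 1 library left out (4 rose without KPCL-PCC_343_G, and 6 without KPCL-PCC_203_G, KPCL-PCC_345_G or KPCL-PCC_393_G; 1 fell without KPCL-PCC_354_GA, KPCL-PCC_343_G, KPCL-PCC_345_G or KPCL-PCC_393_G). Over all genes, 2303 rose and 2428 fell (48.7% of calls higher), against 1430 higher by library size alone (28.6%, median of all genes -0.16), 1160 and 1154 with limma-trend at pseudocounts of 1 and 0.1 (30.8% and 31.2%), 170 higher and 12494 lower scaled to macrophage markers (1.34%), 11419 and 152 scaled to epithelial markers (98.7%), and 1467 to 2218 higher and 1507 to 2136 lower with 1 library left out, the lowest of both, and of the other complement genes that rose, without KPCL-PCC_343_G. The limma-trend fits covered only the 11580 genes whose transcript was the same in the counts and the FPKM, against 14711 under TMM. C5ar1, C5ar2 and Cd59a, called under TMM, were not among them. Clu was among them but did not pass in either limma-trend fit. The 1 other complement gene that fell there was Colec11, listed with the starters. Under TMM Colec11 did not pass (-1.37, adjusted p = 0.0510). The cause of the changes between settings was not tested. The labels give separate mice in each arm and no pairing, so none was used.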
